A study of Homo sapiens with 5 samples.

Results

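The retinoblastoma (RB) pathway decides in G1 whether a cell enters another round of DNA replication. D cyclins bind the kinases CDK4 and CDK6, the active kinases phosphorylate RB, and phosphorylated RB releases the E2F transcription factors that drive S phase genes. Inhibitors of the INK4 family bind CDK4 and CDK6 directly, whereas those of the CIP/KIP family bind cyclin and kinase together and also restrain CDK2. Red cell precursors divide fast and then leave the cycle as they mature, and cyclin D3, CDK6, p27 and RB have each been tied to the number or timing of those last divisions in mouse erythropoiesis.

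The genes described are 10 regulators of this step: the D cyclins CCND1, CCND2 and CCND3, the kinases CDK4 and CDK6, the CIP/KIP inhibitors CDKN1A and CDKN1B, the INK4 inhibitors CDKN2C and CDKN2D, and RB1. They were picked by symbol, and all 10 were found among the 11976 genes of the authors' deposited table. That table compares bulk RNA-seq of HUDEP-2 cells with the genotype ERF knockout (3 libraries) and of wild-type HUDEP-2 cells (2 libraries, titled SCR, a term the labels do not explain). HUDEP-2 is an erythroid progenitor line from umbilical cord blood that was immortalised with the E6 and E7 genes of human papillomavirus. E7 protein binds RB and marks it for destruction, so both groups carry a line built on a disturbed RB axis. The labels do not say whether E6 and E7 were being expressed, whether the knockout cells are 1 clone or a pool, or at which stage of culture RNA was taken. The authors' name for the comparison holds the word Pre, which is not read as a stage here. ERF is an ETS-domain repressor that binds DNA at a GGAA core and leaves the nucleus when ERK phosphorylates it.

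The authors' deposited table holds 1 comparison. Each gene has its log2 fold change, its mean level over all 5 libraries as log2 CPM (reads per gene scaled to a common library total), and the F statistic and p of an edgeR quasi-likelihood test, raw and adjusted for all rows. It has 0 columns of values per library, so no level, spread or depth of a single library is given here, and differences between libraries of a group could not be seen. Standard errors (SE) and 95% intervals were worked out here from fold change and F. Nothing in the labels says that libraries are separate cultures, so the spread between these libraries behind each p may be technical. Each p also rests on spread shared over genes, since it implies 10.3 degrees of freedom, more than 5 libraries give. The header names no direction. The sign was set so that the γ-globin gene HBG2 is higher in the libraries labelled knockout, as the series title states, and HBG2 then has a log2 fold change of 1.88 (SE 0.22) in the authors' deposited table. ERF goes against its label under this sign, with 0.89 (SE 0.07) in the authors' deposited table, that is, more ERF RNA in the libraries labelled knockout. With the opposite reading of the sign, higher and lower swap throughout, and the implied group levels given below change size as well, because the groups hold 3 and 2 libraries. What does not depend on the sign is which genes moved to the same side as HBG2 and ERF and which to the opposite side.

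All 10 erythroid markers were measured, from SLC4A1 at 6.90 to HBB at 12.48 mean log2 CPM, as the erythroid label of the cells requires. Of these, 7 passed as higher and 0 as lower by edgeR (0 lower at an unadjusted p below 0.05 too) in the authors' deposited table under the HBG2 sign, with a median log2 fold change of 0.33. Among all genes, 24.9% were higher and 25.9% lower. HBG2 is a globin gene like HBB, HBA1 and HBA2 on this list, so their direction is not independent of the sign. Of 31 markers of other cell types, 6 were measured: ITGA2B of megakaryocytes, KIT, TPSAB1 and TPSB2 of mast cells and progenitors, LYZ of monocytes and PTPRC of leukocytes. TPSAB1 (0.61) and TPSB2 (0.54) were higher and KIT (-0.41) lower in the authors' deposited table. The implied level summed over these 6 was 1472 CPM in the libraries labelled knockout and 1313 CPM in those labelled wild type. The part of maturation or of cell mixture in the values below was not tested, and in bulk RNA fewer cells of a type and less RNA per cell cannot be told apart.

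At an adjusted p below 0.05 in the authors' deposited table, the libraries labelled knockout had more RNA of 3 of the 10 regulators and less of 3 others under the HBG2 sign, and 4 did not pass. CDKN1A, CCND1 and CCND3 moved to the side of HBG2, and CDKN1B, CCND2 and CDK4 to the opposite side. The comparison called 50.9% of all genes (24.9% higher and 25.9% lower), so 6 calls among 10 genes is near the background and is no result about the group. The sizes of change were likewise ordinary at the centre, since the median size of the log2 fold change was 0.23 for the 10 regulators and 0.21 for all genes in the authors' deposited table. Calls of at least 1.5-fold were made for 3 of the 10 regulators and for 11.2% of all genes. At 2-fold or more these were 2 of 10, CDKN1A and CCND1, and 3.27% of all genes.

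**Figure D1:**
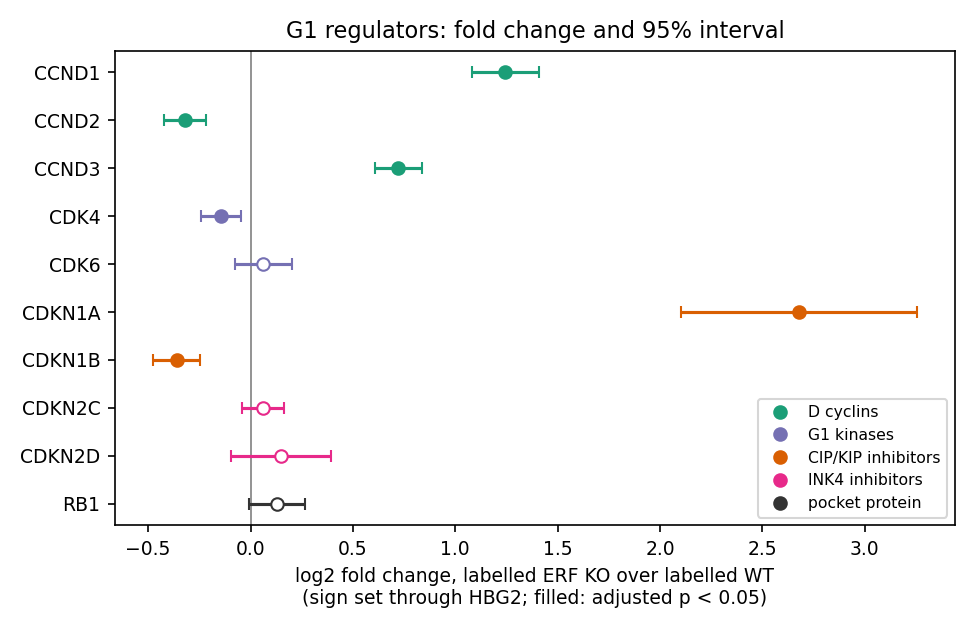
Log2 fold change of each G1 regulator, libraries labelled ERF knockout over those labelled wild type, with the derived 95% interval; filled points passed an adjusted p of 0.05, colours mark the role, and the sign was set through HBG2. CDKN1A (2.68), CCND1 (1.24) and CCND3 (0.72) lie right of 0, and CDKN1B (-0.36), CCND2 (-0.32) and CDK4 (-0.15) lie left of it.

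The 3 D cyclins parted. Each binds CDK4 or CDK6 and stands at the point where growth signals enter the cycle, and the 3 genes are used in different proportions by different tissues. CCND1 (ENSG00000110092, chromosome 11), the D cyclin best known as a target of ERK signalling, had 2.37 times as much RNA in the libraries labelled knockout as in those labelled wild type under the HBG2 sign. Its log2 fold change in the authors' deposited table was 1.24 (SE 0.07, 95% interval 1.08 to 1.41, edgeR adjusted p = 9.17e-07), and 1.68% of genes had a larger absolute change. CCND3 (ENSG00000112576, chromosome 6), the D cyclin needed for the normal number of terminal erythroid divisions in mice, was 1.65-fold higher on the same reading. For CCND3 the authors' deposited table gave 0.72 (SE 0.05, interval 0.61 to 0.84, edgeR adjusted p = 3.08e-06), with 7.20% of genes changed more. CCND2 (ENSG00000118971, chromosome 12), a target of cytokine signalling in blood progenitors, went the other way. Its log2 fold change was -0.32 (SE 0.05, interval -0.42 to -0.22, edgeR adjusted p = 0.000304) in the authors' deposited table, a level 0.801 times that of the wild-type libraries. The intervals of CCND1 and CCND3 do not meet, and neither meets that of CCND2.

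Group levels in CPM can be worked out from the mean over libraries and the fold change, if all libraries are taken as equally deep; they are implied values with no spread of their own. CCND1 came to 66.3 CPM in the libraries labelled knockout and 28.0 CPM in those labelled wild type. CCND2 came to 113 CPM in the knockout libraries and 141 CPM in the wild-type ones. CCND3 came to 149.7 CPM in the knockout libraries and 90.8 CPM in the wild-type ones. With the sign turned, an alternative chosen after seeing the data, CCND1 came to 32.9 CPM in the knockout libraries and 78.1 CPM in the wild-type ones. Turned in the same way, CCND2 came to 135 CPM in knockout and 108 CPM in wild type, and CCND3 to 100.1 CPM in knockout and 165 CPM in wild type. Since long transcripts give more reads, levels of different genes are compared here only after division by exonic length (GENCODE release 29).

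Per kilobase of exon, the 3 D cyclins together came to 70.5 implied CPM per kb in the libraries labelled knockout and 51.2 in those labelled wild type, a ratio of 1.38 under the HBG2 sign. With the sign turned, the sums were 53.8 in knockout and 76.3 in wild type, a ratio of 0.704. Under the HBG2 sign CCND1 made up 21.4% of this sum in the libraries labelled knockout and 12.4% in those labelled wild type, and with the sign turned 13.9% in knockout and 23.2% in wild type. CCND2 made up 24.8% in the knockout libraries and 42.6% in the wild-type ones, and turned 38.8% in knockout and 21.9% in wild type. CCND3 was the most abundant per kb in both groups under either sign, at 53.9% in the knockout libraries and 45.0% in the wild-type ones, and turned 47.3% in knockout and 54.9% in wild type. On this scale, and under either sign, the D cyclin pool held less CCND2 and more CCND1 in the group with more HBG2. These shares are descriptions with no test. In the group with less HBG2, CCND3 and CCND2 stood at 23.0 and 21.8 CPM per kb under the HBG2 sign (the wild-type libraries) and at 25.4 and 20.9 CPM per kb with the sign turned (the knockout libraries). These levels and shares use all exons of a gene. With the longest transcript instead, the mean over all libraries was 52.7 CPM per kb for CCND3, in place of 32.0, and stayed at 19.2 for CCND2. The nearness of CCND3 and CCND2 thus holds for all exons only, and the share of CCND3 would be larger with the longest transcript.

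**Figure D2:**
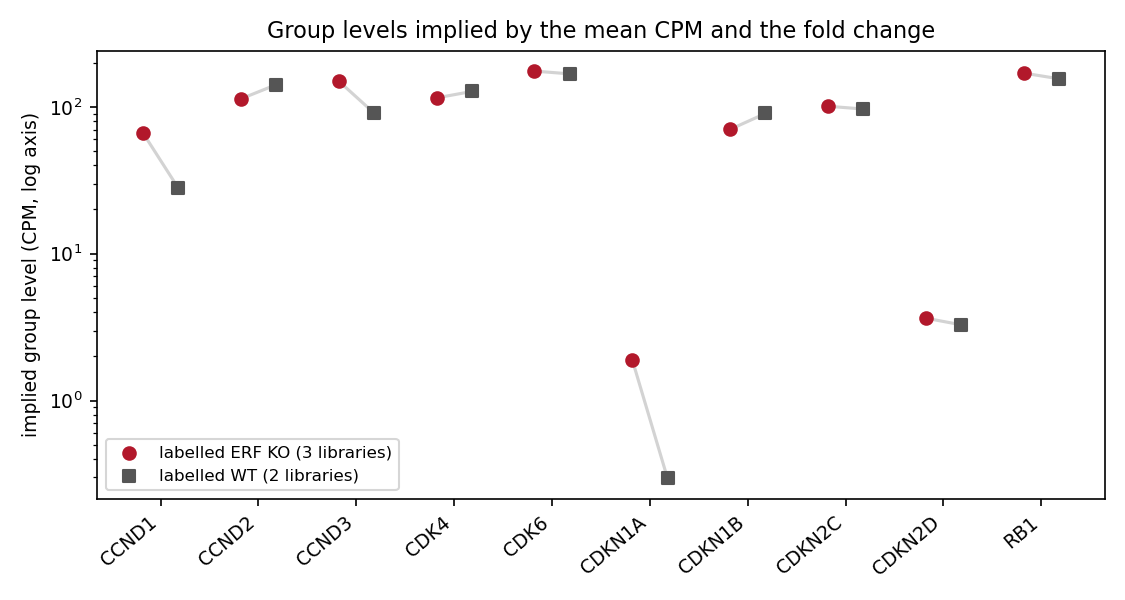
Implied group level of each regulator in CPM (log axis) for the 3 libraries labelled ERF knockout (circles) and the 2 labelled wild type (squares), with a grey line joining the 2 values of a gene. Under the HBG2 sign, CCND1 stands at 66.3 CPM in knockout and 28.0 CPM in wild type, whereas CDK6 stands at 175 CPM in knockout and 168 CPM in wild type.

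The kinases changed little. CDK4 (ENSG00000135446, chromosome 12), the catalytic partner of D cyclins in most tissues, came to 115 CPM in the libraries labelled knockout and 127 CPM in those labelled wild type. Its log2 fold change was -0.15 (SE 0.04, interval -0.24 to -0.05, edgeR adjusted p = 0.0180) in the authors' deposited table. This call was lost at a threshold of 0.01, and 62.3% of genes had a larger absolute change. CDK6 (ENSG00000105810, chromosome 7), the partner kinase that is prominent in blood cells and falls as red cells mature, had 0.06 (SE 0.06, edgeR adjusted p = 0.435) in the authors' deposited table. The 95% interval for CDK6 ran from 0.947-fold to 1.15-fold, so a change beyond that range in either direction lies outside it. Both kinases summed to 70.3 CPM per kb in the libraries labelled knockout and 75.6 in those labelled wild type, a ratio of 0.931, and CDK4 made up 78.8% of the sum in the knockout libraries and 81.1% in the wild-type ones. With the sign turned, the kinase ratio was 1.07, and CDK4 made up 80.6% in knockout and 78.3% in wild type.

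The CIP/KIP inhibitors CDKN1A and CDKN1B moved to opposite sides. CDKN1A (ENSG00000124762, chromosome 6) encodes p21, which stops the cycle in stressed or maturing cells, and it had the largest change of the 10. In the authors' deposited table its log2 fold change was 2.68 (SE 0.26, interval 2.10 to 3.25, edgeR adjusted p = 2.36e-05), which is 6.40-fold in favour of the libraries labelled knockout under the HBG2 sign. Only 0.192% of genes had a larger absolute change. The level behind it was low: 0.33 mean log2 CPM in the authors' deposited table, with 4.27% of genes lower, and an implied 1.89 CPM in the knockout libraries and 0.296 CPM in the wild-type ones. The lowest mean of any gene in the table is 0.578 CPM, so CDKN1A may be listed only through the libraries where it is higher, and a member listed in that way had to differ. Without CDKN1A, 2 of the other 9 regulators were higher and 3 lower. The median size of the log2 fold change was then 0.15, below the 0.21 of all genes, in the authors' deposited table. CCND1 and CCND3 were then the members called at 1.5-fold or more, and CCND1 the only one at 2-fold or more.

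CDKN1B (ENSG00000111276, chromosome 12) encodes p27, which accumulates as erythroid cells leave the cycle and is set largely by protein turnover, a level that RNA does not show. It came to 70.2 CPM in the libraries labelled knockout and 90.1 CPM in those labelled wild type. The authors' deposited table gave a log2 fold change of -0.36 (SE 0.05, interval -0.48 to -0.24, edgeR adjusted p = 0.000282), with 27.0% of genes changed more. Per kb of exon, p27 RNA stood far above p21 RNA in both groups: CDKN1B came to 26.4 CPM in the knockout libraries and 33.9 in the wild-type ones, and CDKN1A to 0.754 CPM in the knockout libraries and 0.118 in the wild-type ones.

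The INK4 inhibitors did not pass the test. CDKN2C (ENSG00000123080, chromosome 1) encodes p18, and came to 101 CPM in the libraries labelled knockout and 96.6 CPM in those labelled wild type. Its log2 fold change was 0.06 (SE 0.05, interval -0.04 to 0.16, edgeR adjusted p = 0.280) in the authors' deposited table, which bounds it between 0.973-fold and 1.12-fold. CDKN2D (ENSG00000129355, chromosome 19) encodes p19 and was scarce, at 3.64 CPM in the knockout libraries and 3.28 CPM in the wild-type ones. The authors' deposited table gave 0.15 (SE 0.11, edgeR adjusted p = 0.282) for CDKN2D. Its interval of 0.936-fold to 1.31-fold is the widest of the 4 genes that did not pass.

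RB1 (ENSG00000139687, chromosome 13), whose protein is the target of the D cyclin kinases, came to 169.6 CPM in the libraries labelled knockout and 155 CPM in those labelled wild type. Its log2 fold change in the authors' deposited table was 0.13 (SE 0.06, edgeR adjusted p = 0.107), an interval of 0.994-fold to 1.20-fold. RNA abundance tells nothing of the phosphorylation of RB or of its loss through E7.

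Across the 10 genes, the order of mean level per kb over all libraries was CDK4 (57.7 CPM per kb), RB1 (32.7), CCND3 (32.0), CDKN2C (29.9), CDKN1B (29.4), CCND2 (19.2), CDK6 (14.7), CCND1 (11.6), CDKN2D (2.33) and CDKN1A (0.500). The spread of these levels over libraries is not in the table, so whether neighbours in the order differ beyond it is not known. With the longest transcript in place of all exons, CCND3 stood above RB1, at 52.7 against 34.2 CPM per kb, and the other 8 genes kept their ranks. The gene that changed most was thus the least abundant, and CCND1 was the scarcest of the D cyclins.

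**Figure D3:**
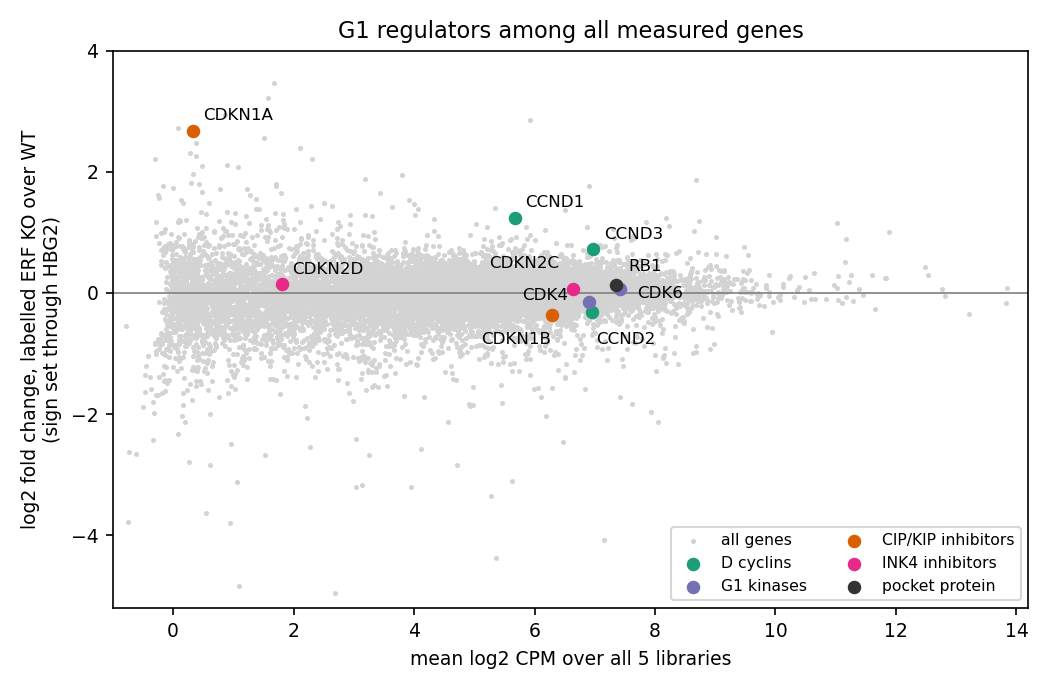
Log2 fold change (libraries labelled ERF knockout over wild type, sign set through HBG2) against mean log2 CPM over all 5 libraries for 11976 genes (grey) and the 10 regulators (coloured by role). CDKN1A lies at 0.33 log2 CPM near the low edge, and 7 of the others lie between 6.29 and 7.43 log2 CPM.

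The regulators differed in precision. Because the degrees of freedom (10.3) exceed what 5 libraries give, each standard error is partly shared over genes. Likeness to genes of similar level is thus partly built in. The standard errors of CCND2, CCND3, CDK4, CDKN1B and CDKN2C were between 0.04 and 0.05, about the median of 0.05 for genes within 0.5 log2 CPM of each. CCND1, CDK6 and RB1 were less precise than such genes, at 0.07, 0.06 and 0.06 against medians of 0.05, and CDKN1A stood at 0.26 against 0.20. CDKN2D, at 0.11, was slightly more precise than its neighbours in level, at 0.13. Some exons also overlap other genes. CCND1 shares exonic bases with LTO1 on the opposite strand and CDK4 with TSPAN31, likewise on the opposite strand. In the authors' deposited table LTO1 stood at 0.03 log2 (edgeR adjusted p = 0.721) and TSPAN31 at 0.01 log2 (edgeR adjusted p = 0.903), so neither partner passed the test. Whether counting used strand is not known from the sources used here, and reads in shared bases cannot be assigned. Overlapping transcripts of CCND2, CCND3 and CDKN1A were not analysed here.

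Promoter sequence was looked up because ERF binds ETS motifs, because RB acts through E2F and because CDK4 is a known target of MYC, which binds E-boxes. RefSeq lists (GRCh38.p14) gave 13 start sites for 8 of the 10 genes, each as 250 bases before and 50 after the start; CCND1 and CCND2 had no entry. The stretch before 1 start is shown for each of 3 genes: that of CDKN1A as the gene with the largest change, that of the single CCND3 start with an ETS match, and that of CDK4 with its E-boxes. All read 5′ to 3′ on the strand of the gene, with capitals for motif matches on either strand. The ETS motif searched was CCGGAAG. The GC box, bound by SP1 and KLF factors, was GGGCGG. The E-box was CACGTG. For E2F the letters were TTTNNCGC, and for GATA factors AGATAA.
CDKN1A, chr6:36678464-36678713, plus strand: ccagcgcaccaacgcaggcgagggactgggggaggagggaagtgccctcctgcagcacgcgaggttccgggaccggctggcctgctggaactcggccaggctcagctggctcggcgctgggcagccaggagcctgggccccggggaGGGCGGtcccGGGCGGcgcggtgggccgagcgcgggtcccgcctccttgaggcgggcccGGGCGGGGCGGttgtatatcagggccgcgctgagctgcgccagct
CCND3, chr6:41941809-41942058, minus strand: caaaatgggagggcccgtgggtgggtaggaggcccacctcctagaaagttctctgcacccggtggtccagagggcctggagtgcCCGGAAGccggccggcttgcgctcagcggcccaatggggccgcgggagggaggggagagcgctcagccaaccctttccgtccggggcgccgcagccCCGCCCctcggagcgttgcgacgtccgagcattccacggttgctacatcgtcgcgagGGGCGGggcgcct
CDK4, chr12:57752311-57752560, minus strand: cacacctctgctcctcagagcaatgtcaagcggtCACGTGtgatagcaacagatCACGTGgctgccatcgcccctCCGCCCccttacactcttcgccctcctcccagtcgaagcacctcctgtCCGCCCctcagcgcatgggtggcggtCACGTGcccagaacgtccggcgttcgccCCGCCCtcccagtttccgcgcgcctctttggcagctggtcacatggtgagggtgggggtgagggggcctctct
The CDKN1A stretch holds 4 GC boxes, of which the last 2 overlap by 1 base, and no match to the other motifs. In the CCND3 stretch the ETS match spans -166 to -160 with the start at 0. CDK4 has 3 E-boxes, at -216, -196 and -101, and 3 GC boxes.

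Over the 300-base windows, the ETS motif was found at 1 of the 13 member starts, against 10.3% of all 35116 listed starts and 18.1% of those of measured genes. The E2F motif was found at 1 start, that of CDKN2D, against 6.89% of all starts and 9.98% of those of measured genes. GC boxes were found at 9 of the 13, against 45.0% of all windows and 66.8% of those of measured genes. E-boxes were found at 4 of the 13, against 7.26% of all and 9.84% of those of measured genes. The GATA motif was in none of the 13, against 10.3% of all and 5.67% of those of measured genes. Several of the 13 windows belong to 1 gene. A match is a string of letters and not evidence of binding, and a window without one says nothing about the factor.

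Downstream of the kinases, pocket proteins and E2F factors moved both ways by small amounts. On this list of 18 measured genes the authors' deposited table had 6 higher, 5 lower and 7 that did not pass, with a median log2 fold change of 0.02 against -0.0019 for all genes. For this list and those below, the share over all genes was 24.9% higher and 25.9% lower. The lists share genes, so their counts are not separate from each other, and this list also holds RB1. The pocket protein p130, encoded by RBL2 and bound to E2F4 in resting cells, was lower (-0.25), and p107, encoded by RBL1, did not pass (0.06) in the authors' deposited table. Among activating E2F factors the authors' deposited table had E2F3 higher (0.38), E2F1 lower (-0.17) and E2F2 without a call (-0.03). Of those that act mainly as repressors, E2F4 (0.18), E2F6 (0.31) and E2F7 (0.28) were higher, E2F8 was lower (-0.19) and E2F5 (-0.12) did not pass in the authors' deposited table. The dimer partners TFDP1 (0.22) and TFDP2 (0.19) were higher in the authors' deposited table. LIN9 (-0.39) and LIN54 (-0.42), of the MuvB core that joins p130 to silence cell cycle genes, were lower, and LIN52 (-0.12), RBBP4 (-0.04) and MYBL2 (0.11) did not pass in the authors' deposited table.

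E-type cyclins, which activate CDK2 after RB is first phosphorylated, rose in the libraries labelled knockout under the HBG2 sign. CCNE2 had a log2 fold change of 0.78 (SE 0.08, edgeR adjusted p = 3.24e-05) and CCNE1 one of 0.35 (SE 0.06, edgeR adjusted p = 0.00118) in the authors' deposited table. Among 13 measured partners that act after the D cyclins, the authors' deposited table had 5 higher and 1 lower, with a median of 0.06. The other higher members were the phosphatase CDC25A (0.38) and the mitotic cyclins CCNB1 (0.36) and CCNB2 (0.20), and the lower one was CDC25C (-0.20) in the authors' deposited table. CDK2 (-0.0023), CDK1 (0.04), cyclin A2 from CCNA2 (0.06), CDC25B (0.12) and the CDK-activating kinase genes CDK7 (-0.12), CCNH (0.06) and MNAT1 (0.0069) did not pass in the authors' deposited table.

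Canonical E2F targets did not move one way. CCNE1, CCNE2, CCNA2, CDK1 and CDC25A, of the partners above, are counted here again, as are E2F1, E2F2, RBL1 and MYBL2. The authors' deposited table had 5 of 26 higher, 9 lower and 12 that did not pass, with a median of -0.02. The largest called changes were CDT1 (-1.03), a licensing factor, CCNE2 (0.78) and RRM2 (0.59), a subunit of ribonucleotide reductase, in the authors' deposited table. Of 12 proliferation markers, most of them mitotic, 10 were higher and 0 lower by edgeR, adjusted or not, in the authors' deposited table, with a median of 0.30. Among all genes, 24.9% were higher and 25.9% lower. The markers with the largest changes were CDC20 (0.52), BIRC5 (0.52) and PLK1 (0.36). CCNB1, counted above among the CDK partners, is also among these 12. No distribution of cells over the cycle was measured, and its part in the values of the regulators was not tested.

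**Figure D4:**
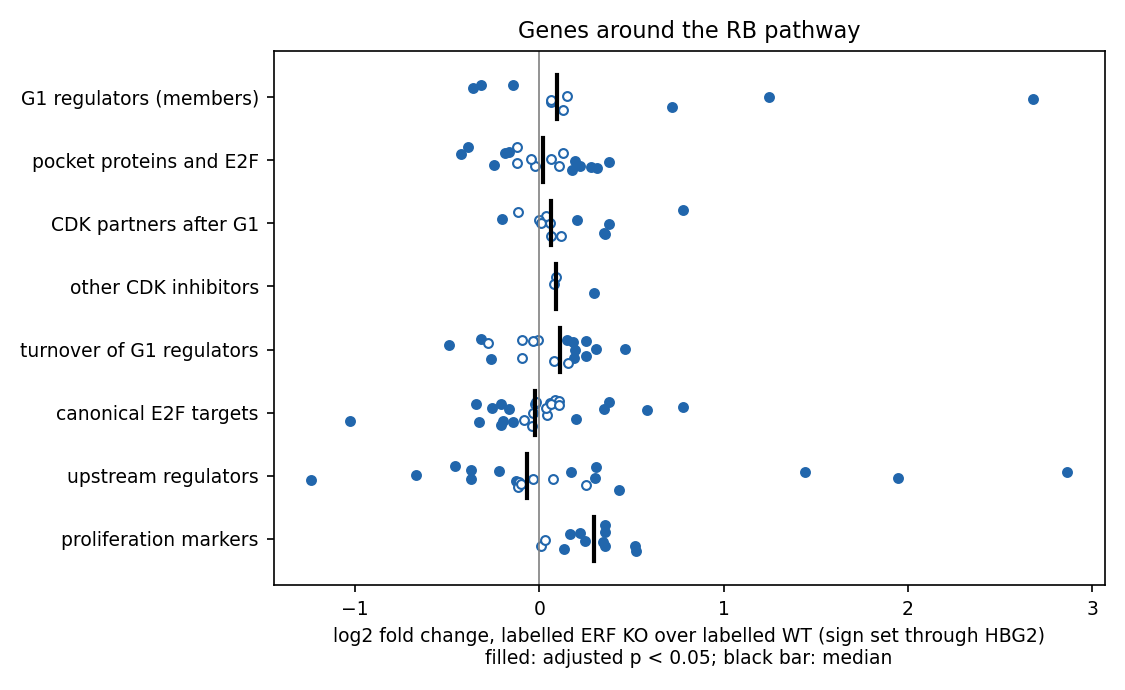
Log2 fold change (libraries labelled ERF knockout over wild type, sign set through HBG2) of the 10 G1 regulators and of the genes of 7 lists around the RB pathway; each point is a gene, filled where its adjusted p was below 0.05, and black bars are medians. Proliferation markers have the highest median (0.30), and the pocket protein and E2F list centres near 0 (0.02). Genes shared between rows, such as RB1, are drawn in each.

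Other CDK inhibitors were few. CDKN2A, CDKN2B and CDKN3 were measured, and their values were seen before CDKN2A and CDKN2B were chosen for mention. CDKN2A, whose products include p16, is held down by RB, and its value here is for the whole gene, not for p16 alone. It was abundant at 7.36 mean log2 CPM and had a log2 fold change of 0.09 (edgeR adjusted p = 0.338) in the authors' deposited table. CDKN2B, its INK4 neighbour, had 0.08 (edgeR adjusted p = 0.521), and CDKN3, a phosphatase of CDKs with its peak in mitosis, was higher at 0.30 in the authors' deposited table. All 4 INK4 genes were thus measured, and none passed the edgeR test, adjusted or at an unadjusted p below 0.05. CDKN1C, LIN37 and CCNA1 were on the lists but were not found by symbol in the authors' deposited table, so they have no values here.

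Genes for the turnover of G1 regulators had 8 of 18 higher and 3 lower in the authors' deposited table, with a median of 0.11. CUL1, the scaffold of the SCF ubiquitin ligase that degrades p27, was higher (0.46), and FBXO4, an F-box protein proposed for cyclin D1, was lower (-0.49) in the authors' deposited table. DTL, the receptor through which CUL4 ligase degrades p21 and CDT1, was lower (-0.32) in the authors' deposited table. SKP2, which selects p27 for SCF, was chosen after its value was seen and had -0.0087 (edgeR adjusted p = 0.889) in the authors' deposited table.

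Upstream, 7 of 20 regulators were higher and 7 lower in the authors' deposited table, with a median of -0.07. The largest changes were the immediate early factors EGR1 (2.86), FOS (1.95) and JUN (1.44), on the side of HBG2 in the authors' deposited table. AP-1, of which FOS and JUN are parts, is a known activator of CCND1, but its part in the value of CCND1 was not tested. FOXO3, a known activator of CDKN1B, was chosen after its value was seen and was lower at -0.37 (edgeR adjusted p = 0.000143) in the authors' deposited table. The FOXO genes on this list did not move together, since FOXO4 was higher (0.43) and FOXO1 (0.25) did not pass in the authors' deposited table. Their part in the value of CDKN1B was not tested.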

How the data were processed

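Total RNA of 3 ERF knockout and 2 wild-type HUDEP-2 libraries (TruSeq RNA kit, per the labels' protocols) had been sequenced and compared by the authors. Per the submitters' processing notes, the tools used by the authors were TopHat2 2.0.4, SAMtools, HTSeq, Cuffdiff and edgeR 2.6.12 with build hg19/GRCh37, with no roles given. The sources used here give no filter, normalization or direction of the comparison. Columns of the deposited table are, per the file headers, log2 fold change, mean log2 CPM, an F score of a quasi-likelihood test, and p-values before and after Benjamini-Hochberg adjustment. It has 11979 rows, of which 3 name no gene and hold 21.5% of the CPM; these stayed out of all counts. No model was fitted again, and depth per library is unknown.

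Signs were multiplied by -1 so that HBG2 is higher in the knockout. SE was taken as the size of the log2 fold change over √F, and intervals from Student's distribution at the 10.3 degrees of freedom that link F to p. These are approximations, as the edgeR fit by the authors shrinks fold changes. Implied group CPM solves the mean over 3 and 2 equally deep libraries. The code for SE, intervals and degrees of freedom was run on simulated data (Python 3.11.15, scipy 1.17.1). Those data were built from the same formulas, so the run checks the code and not whether the formulas suit the authors' fit. Implied group CPM was not part of that run. Lengths and overlapping genes came from GENCODE 29 by identifier, chromosomes and promoters from RefSeq. Calls use an adjusted p below 0.05 over the whole table. Members and 14 lists were chosen with earlier results of these data known. Named are all members, every pocket protein, E2F and CDK partner gene, and up to 3 genes per other list with the largest change past the threshold; others are marked, and 1 list and 1 gene of another are not reported here. Alternatives were 2 other adjustments, a threshold of 0.01, a minimum of 1 log2 CPM, centring, a minimum of 1.5-fold and, for implied levels, the turned sign.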

Additional observations from a re-analysis of the deposited data

How the results depend on the processing

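Other adjustments, a threshold of 0.01 and a minimum of 1 log2 CPM leave fold changes as they are, so they bear only on the calls, and centring moved each by less than the smallest change of a regulator. Under these 5 alternatives each call of the 10 regulators held except that of CDK4; CDKN1A, below 1 log2 CPM, had no value under that minimum. The log2 fold change of CDK4, -0.15, was no longer past the threshold at 0.01 (adjusted p = 0.0180, edgeR) or with Benjamini-Yekutieli adjustment (adjusted p = 0.180); its adjusted p ranged from 0.00630 after centring to 0.180. Centring shifted all log2 values by 0.03. With Benjamini-Yekutieli adjustment 1725 of all genes were higher and 1871 lower, in place of 2987 and 3105; these fall with the stricter adjustment by construction. With a minimum of 1.5-fold, 461 of all genes were higher and 885 lower, and of the regulators 3 were higher and 0 lower, where edgeR called 3 lower with no minimum and 3 were lower at an unadjusted p below 0.05. Counts over the fixed pathway lists (44 higher and 28 lower of 116 genes beside the regulators) stayed within 1.5 times under the alternatives run on them. Among all genes, 24.9% were higher and 25.9% lower with the main setting. Reading the sign the other way exchanges higher and lower throughout and alters implied levels and shares; this alternative was added after seeing the data. No paired analysis was possible because the table has no values per library, and for the same reason no library could be left out. CDKN1A and CDKN2D had the largest SE of the 10, at 0.26 and 0.11 on the log2 scale. They also had the lowest mean levels, at 0.33 and 1.81 log2 CPM. The part of depth in these SE was not tested, since depth per library is unknown.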
